A study of Mus musculus with 6 samples.

Results

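The mevalonate pathway turns acetyl-CoA into the isoprene units from which cells build sterols, and its transcripts were read here in mouse blood stem cell libraries after a high cholesterol diet. The group described holds 9 genes chosen by symbol, Acat2, Hmgcs1, Mvk, Pmvk, Mvd, Idi1, Fdps, Ggps1 and Fdft1, of 21851 genes in the deposited tables. All 9 passed the filter on low values, at least 1 FPKM (fragments per kilobase of transcript, scaled to the mapped total of the library) in at least 3 libraries, as did 10676 genes in all. Libraries came from wild-type mice kept on a high cholesterol diet (HCD) for 3 months (3 libraries) or on a control diet (CD, 3 libraries). The labels give no strain, sex, age or diet composition. The RNA was that of bone marrow cells labelled as haematopoietic stem cells of the long-term kind (LT-HSCs), the source of lasting blood formation, and sorted as lineage-negative cells with KIT and SCA1 and without CD34 and CD135. Whether a library holds 1 animal or several is not stated, so the p-values reflect the spread among these libraries alone, which may be technical.

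In the pathway, acetyl-CoA units are joined to HMG-CoA, from which mevalonate is made; mevalonate is phosphorylated and decarboxylated to isopentenyl diphosphate, the building block of all later products. These units are assembled into farnesyl diphosphate, which is drawn on for squalene and cholesterol, for ubiquinone and dolichol, and for the lipid anchors of proteins such as the small GTPases. In mammalian cells sterols restrain the pathway through the SREBP transcription factors, which are held back from the nucleus when membrane cholesterol is high. The step from HMG-CoA to mevalonate was not analysed here.

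Each library was estimated to hold 18820000 to 19980000 reads or fragments, from what 1 read is worth among its lowest values. The principal component that held 54.2% of the variance over all genes tested parted the diets, and the next, with 26.5%, set HCD replicate 2, at -14.7, apart from HCD replicate 1, at 7.81, and HCD replicate 3, at 10.1. Without HCD replicate 2 the log2 changes of the 9 genes, HCD minus CD, were -0.03 for Acat2, -0.14 for Hmgcs1, 0.01 for Mvk, 0.18 for Pmvk, -0.34 for Mvd, -0.77 for Idi1, -0.24 for Fdps, -0.05 for Ggps1 and -0.04 for Fdft1, and Mvd, Idi1 and Fdps were past a limma adjusted p of 0.05. In that fit 25.2% of all genes tested were called in either direction, 1501 of them lower. Against the gate, Cd34 averaged 458 ± 17.0 FPKM in HCD libraries and 471 ± 15.4 FPKM in CD libraries, and Flt3, which encodes CD135, averaged 104 ± 4.12 FPKM in HCD libraries and 114 ± 1.19 FPKM in CD libraries (SD, n = 3 each). Kit and Ly6a, the gene for SCA1, were present in every library. The libraries are thus LT-HSC libraries by label. Of 9 sort gate and stem cell genes, Slamf1 was called higher, at 3.41 FPKM under HCD and 1.79 under CD (limma adjusted p = 0.0118). Hlf was called lower, at 48.8 FPKM under HCD and 56.2 under CD (limma adjusted p = 0.0219). With all libraries in the fit, 13.9% of all genes tested were called in either direction.

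Under HCD the gene of the isomerase that activates isoprene units, Idi1, fell to 58.3% of its CD level, and Fdps, which makes farnesyl diphosphate, fell to 84.9%. These were 2 of 9 mevalonate genes past the threshold, an adjusted p of 0.05 in limma over all genes tested, and 0 of 9 were past it in the upward direction. Across all genes 7.66% were called lower, 6.28% higher and 13.9% in either direction, 1488 genes with 670 higher and 818 lower; TMM scaling between libraries turned this split to 785 higher and 597 lower. The log2 change was negative for 7 of the 9 members, with a median of -0.10, against a median of -0.03 and a negative change in 57.9% of all genes tested. Log2 changes are HCD minus CD on log2(FPKM + 1), a scale that understates the change of low genes. In 4 of the 9, Mvd, Idi1, Fdps and Ggps1, every HCD library was below every CD library, where 22.7% of all genes showed such a separation downward and 37.7% in either direction.

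**Figure D1:**
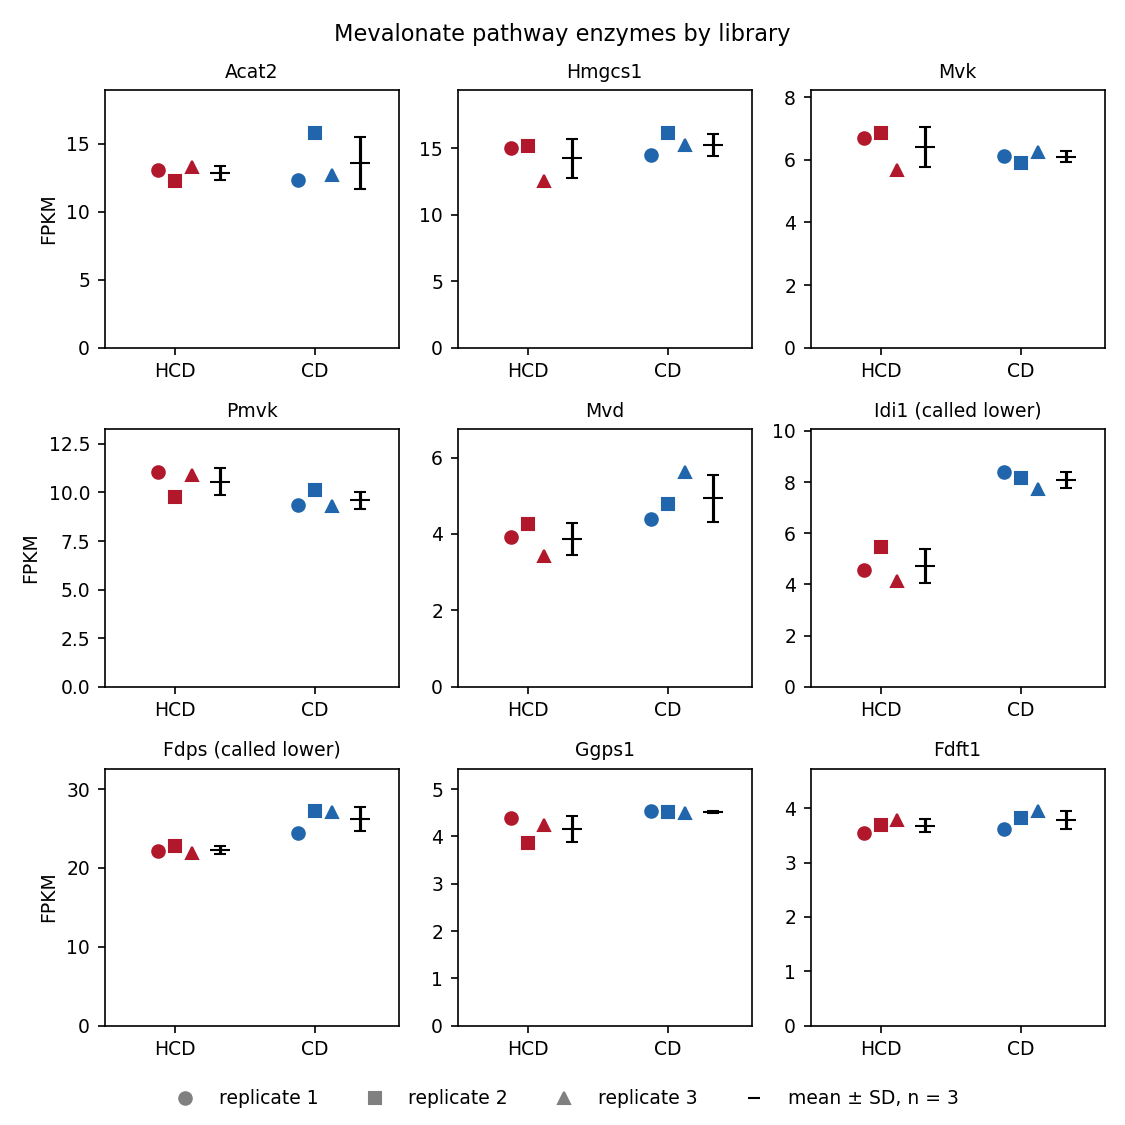
FPKM of the 9 mevalonate pathway genes in each library, with HCD libraries in red on the left and CD libraries in blue on the right of each panel, in pathway order; black bars show the mean ± SD of 3 libraries. The 3 HCD libraries lie below the 3 CD libraries for Mvd, Idi1, Fdps and Ggps1. The space between the highest HCD and the lowest CD library is widest for Idi1, at 2.29 FPKM. Its means are 4.71 FPKM under HCD and 8.09 FPKM under CD.

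FPKM are scaled by transcript length, so the levels of the 9 genes can be set in order. Over the 6 libraries Fdps was highest, at 24.3 ± 2.39 FPKM, above 70.7% of the genes tested, and Fdft1, the squalene synthase gene that commits farnesyl diphosphate to sterols, was lowest, at 3.73 ± 0.14 FPKM, above 17.4%. Between them lay Hmgcs1 at 14.8 FPKM, Acat2 at 13.2, Pmvk at 10.1, Idi1 at 6.40, Mvk at 6.25, Mvd at 4.40 and Ggps1 at 4.34. Most neighbours in this order kept it in 6 of 6 libraries. The exceptions were Hmgcs1 over Acat2, in 5 libraries, Idi1 over Mvk, in 3, and Mvd over Ggps1, in 3. For Idi1 and Mvk the order went with diet: Idi1 was above Mvk in every CD library and below it in every HCD library. Taking the longest coding transcript of each gene, these levels correspond to between 115 and 1053 reads per gene and library, with the fewest for Mvd. At 115 reads counting error alone would be about 9.34% of a value. Where shorter transcripts are expressed, the reads would be fewer and the error larger.

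The enzymes that open the pathway did not pass the test. Acat2, which encodes the cytosolic thiolase that joins acetyl-CoA units (chromosome 17, 12942890 to 12960747, GRCm38, minus strand), had 13.0, 12.3 and 13.3 FPKM in HCD libraries and 12.3, 15.7 and 12.7 FPKM in CD libraries. The groups overlap, and CD replicate 2 alone stood high. The log2 change was -0.07 (SE 0.09, limma adjusted p = 0.664), and it was 0.04 without CD replicate 2. Hmgcs1, the cytosolic HMG-CoA synthase gene (chromosome 13, 119690379 to 119708260, plus strand), had 15.0, 15.2 and 12.6 FPKM in HCD libraries and 14.5, 16.1 and 15.2 FPKM in CD libraries. HCD replicate 3 was low and the other HCD libraries lay within the CD range, with a log2 change of -0.10 (95% interval -0.28 to 0.09, limma adjusted p = 0.449). Without HCD replicate 3 the change was -0.02, and it was -0.14 without HCD replicate 2.

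The kinases that phosphorylate mevalonate were the members with positive changes. Mvk, the mevalonate kinase gene (chromosome 5, 114444269 to 114460591, plus strand), had 6.70, 6.85 and 5.67 FPKM in HCD libraries and 6.14, 5.91 and 6.25 FPKM in CD libraries. HCD replicate 3 was the lowest of all and HCD replicates 1 and 2 the highest, so the groups overlap. Pmvk, the phosphomevalonate kinase gene (chromosome 3, 89454541 to 89469013, plus strand), had 11.0, 9.76 and 10.9 FPKM in HCD libraries and 9.37, 10.1 and 9.32 FPKM in CD libraries. The groups overlap only because HCD replicate 2 lay below CD replicate 2, and leaving out either of these libraries would part them. Neither kinase passed the test, with log2 changes of 0.06 (limma adjusted p = 0.680) for Mvk and 0.12 (limma adjusted p = 0.273) for Pmvk. Without HCD replicate 2 the change of Pmvk was 0.18 (limma adjusted p = 0.0725) and that of Mvk 0.01 (limma adjusted p = 0.925), while Mvk was 0.13 without HCD replicate 3 (limma adjusted p = 0.314).

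Mvd encodes the decarboxylase that forms isopentenyl diphosphate (chromosome 8, 122433601 to 122443422, minus strand). It had 3.92, 4.26 and 3.42 FPKM in HCD libraries and 4.39, 4.79 and 5.61 FPKM in CD libraries. The groups did not overlap but came within 0.13 FPKM of each other, and the means were 3.87 ± 0.42 FPKM under HCD and 4.93 ± 0.62 FPKM under CD (SD, n = 3 each). The log2 change of -0.28 (SE 0.11, 95% interval -0.52 to -0.04) missed the threshold (limma adjusted p = 0.107). Without HCD replicate 2, the HCD library with the highest Mvd, it was -0.34 and past the threshold (limma adjusted p = 0.0397). In that fit 25.2% of all genes tested were called.

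Idi1, whose product converts isopentenyl diphosphate to its reactive isomer dimethylallyl diphosphate, lies on chromosome 13 from 8885501 to 8892451 on the plus strand. It had 4.57, 5.46 and 4.11 FPKM in HCD libraries and 8.38, 8.14 and 7.75 FPKM in CD libraries. The highest HCD library, replicate 2, was still 2.29 FPKM below the lowest CD library. The means were 4.71 ± 0.68 FPKM under HCD and 8.09 ± 0.32 FPKM under CD (SD, n = 3 each), a log2 change of -0.68 (SE 0.10, 95% interval -0.90 to -0.46, limma adjusted p = 0.00422). By size of log2 change it was the 26th fall of the 818 genes called lower. The call held when any single library was left out, with log2 changes from -0.77 to -0.60 and limma adjusted p from 0.00018 to 0.0311. Idi2, the neighbouring isomerase gene, was listed at 0 in all 6 libraries.

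Fdps, whose product chains isoprene units into farnesyl diphosphate, lies on chromosome 3 from 89093588 to 89101959 on the minus strand. It had 22.2, 22.8 and 21.9 FPKM in HCD libraries and 24.5, 27.2 and 27.1 FPKM in CD libraries. CD replicate 1 stood closest to the HCD libraries, and the groups did not overlap. The means were 22.3 ± 0.48 FPKM under HCD and 26.2 ± 1.53 FPKM under CD (SD, n = 3 each), a log2 change of -0.22 (SE 0.06, 95% interval -0.36 to -0.09, limma adjusted p = 0.0355). This call was close to the threshold. It was lost when any library other than HCD replicate 2 was left out, with limma adjusted p from 0.0513 to 0.137, without a filter on low values (0.0574) and with TMM scaling between libraries (0.0704).

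**Figure D2:**
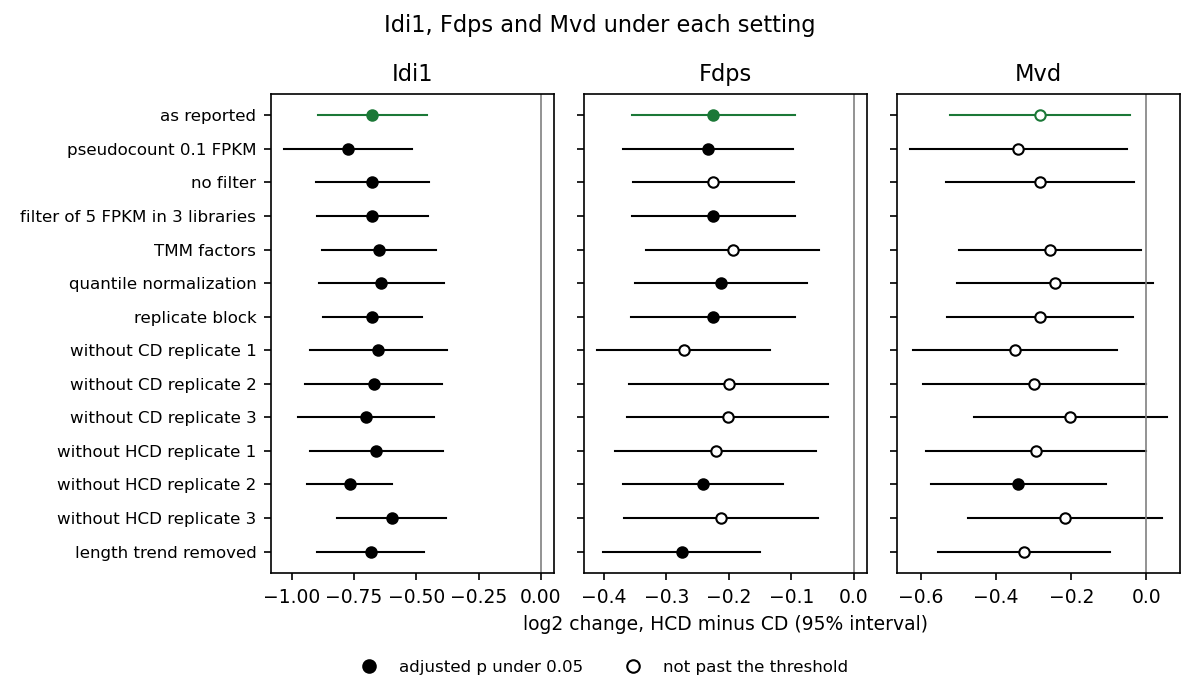
Log2 change, HCD minus CD, with its 95% interval for Idi1, Fdps and Mvd under the reported fit and each of 13 alternatives; filled points are past an adjusted p of 0.05, and each panel has its own horizontal scale. Idi1 is filled under every setting, Fdps under the reported fit and 6 alternatives, and Mvd only without HCD replicate 2; Mvd has no point under the filter of 5 FPKM, which it does not pass.

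The enzymes at the branch from farnesyl diphosphate did not pass. Ggps1, which encodes the synthase of the geranylgeranyl diphosphate used on small GTPases (chromosome 13, 14050659 to 14063488, minus strand), had 4.40, 3.86 and 4.23 FPKM in HCD libraries and 4.53, 4.51 and 4.50 FPKM in CD libraries. Every HCD library was lower, but HCD replicate 1 by little, and the log2 change was -0.10 (95% interval -0.27 to 0.08, limma adjusted p = 0.433), or -0.05 without HCD replicate 2. Fdft1, the squalene synthase gene (chromosome 14, 63145150 to 63179578, minus strand), had 3.55, 3.69 and 3.79 FPKM in HCD libraries and 3.61, 3.81 and 3.94 FPKM in CD libraries. The groups overlap almost fully, with a log2 change of -0.03 (95% interval -0.21 to 0.14, limma adjusted p = 0.802). The interval of Fdft1 lies wholly above that of Idi1, although the difference between these genes was not tested.

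Summed over the 9 genes the level was 84.4, 84.1 and 79.8 FPKM in HCD libraries and 87.7, 96.3 and 92.3 FPKM in CD libraries, so all HCD libraries lay below all CD libraries. Idi1 made up 5.69 ± 0.70% of that sum under HCD and 8.80 ± 0.66% under CD (SD, n = 3 each). Fdps was 4.85, 4.18 and 5.32 times Idi1 in HCD libraries and 2.92, 3.34 and 3.50 times Idi1 in CD libraries. The log2 ratio of Idi1 to Fdps, which no scaling of whole libraries can change, was lower by 0.55 under HCD, with no overlap. A two-sided exact permutation test gave p = 0.1, the smallest that 3 against 3 libraries allow. This ratio was picked after its values were seen to part the diets, which fixes that p in advance, so the test adds no support.

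Within the HCD group the same 5 genes, Hmgcs1, Mvk, Mvd, Idi1 and Fdps, were each highest in replicate 2 and lowest in replicate 3. Acat2, Pmvk and Ggps1 were lowest in replicate 2. In the CD group no such set stood out: replicate 1 held the lowest value of 5 genes, Acat2, Hmgcs1, Mvd, Fdps and Fdft1, but also the highest of Idi1 and Ggps1. Over the 6 libraries, and so with the diet difference included, Pearson's r on log2(FPKM + 1) was 0.82 between Mvd and Idi1, 0.90 between Mvd and Fdps and 0.89 between Idi1 and Fdps. These are consecutive steps. Pmvk ran the other way, with r of -0.77 to Mvd, -0.82 to Idi1 and -0.65 to Fdps. With 6 libraries in 2 diets these coefficients are a description.

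Some members share ground with other genes. The library kit marked strand, per the labels, but nothing says whether strand was used in quantification. The ends of Fdft1 and Ctsb, the cathepsin B gene, overlap by 774 bases on opposite strands, and Ctsb averaged 45.3 ± 3.51 FPKM under HCD and 37.3 ± 1.02 FPKM under CD (log2 change 0.27, limma adjusted p = 0.0228). Ggps1 and Arid4b overlap head to head by 257 bases, and Arid4b, which encodes a chromatin protein, averaged 10.9 FPKM under HCD and 11.1 FPKM under CD (log2 change -0.02, limma adjusted p = 0.882). Mmab, a vitamin B12 pathway gene that starts 209 bases from Mvk in the opposite direction, averaged 9.19 ± 1.26 FPKM under HCD and 9.20 ± 1.01 FPKM under CD (SD, n = 3 each). Mvk and its divergent partner thus both missed the threshold (limma adjusted p = 0.981 for Mmab). Mvd also lies wholly within a longer gene model, Gm20388, and 7512 bases of Fdps overlap the model Gm43738 on the same strand. On opposite strands, Idi1 overlaps the model Gm48574 by 323 bases and Hmgcs1 overlaps the model Gm48342 by 6190 bases. Neither Gm48574 nor Gm48342 has a value in these libraries.

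RefSeq promoter windows on GRCm38.p6 were matched for 7 of the 9 members. Fdps and Fdft1 were not matched. The windows of 300 bases (250 before the start site and 50 after it) were searched on both strands for exact matches to TCACNCCAC, a form of the sterol response element to which SREBP proteins bind, its core CACNCCAC, which lies inside the longer form, the E-box CACGTG, the NF-Y box CCAAT and the Sp1 box GGGCGG. The long sterol element was found in 1 member, Hmgcs1, and in 1.24% of all windows. The core was in Hmgcs1 and Acat2, and in 6.24% of all windows. CCAAT was in 6 of the 7 matched members and in 37.4% of all windows, GGGCGG was in 5 and in 35.7%, and CACGTG was in 0 and in 7.15%. The 250 bases before the start site are shown for the member with the largest fall, Idi1, for its neighbour in the pathway, Mvd, and for Hmgcs1, which carries the sterol element and did not pass the test. Capitals mark CCAAT on either strand (ATTGG when read on the strand shown) and, in Hmgcs1, also the sterol element.
Idi1, chr13:8885356-8885605, plus strand: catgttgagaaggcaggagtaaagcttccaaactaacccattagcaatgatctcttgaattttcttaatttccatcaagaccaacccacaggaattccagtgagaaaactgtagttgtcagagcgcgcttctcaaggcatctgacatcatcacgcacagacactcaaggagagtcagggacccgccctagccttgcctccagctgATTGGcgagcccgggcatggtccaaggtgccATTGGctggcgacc
Mvd, chr8:122443423-122443672, minus strand: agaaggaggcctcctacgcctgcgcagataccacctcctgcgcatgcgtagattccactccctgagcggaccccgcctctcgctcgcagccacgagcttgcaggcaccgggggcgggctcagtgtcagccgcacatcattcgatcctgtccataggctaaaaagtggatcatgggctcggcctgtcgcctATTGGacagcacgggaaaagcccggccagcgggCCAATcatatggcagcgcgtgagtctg
Hmgcs1, chr13:119690101-119690350, plus strand: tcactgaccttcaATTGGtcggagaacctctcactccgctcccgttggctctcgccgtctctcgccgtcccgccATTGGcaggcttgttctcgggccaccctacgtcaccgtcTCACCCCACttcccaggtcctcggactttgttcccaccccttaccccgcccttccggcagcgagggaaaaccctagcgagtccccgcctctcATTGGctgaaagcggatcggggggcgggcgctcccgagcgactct

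In Idi1 the CCAAT matches lie at -45 and -14 from the start site of the window and in Mvd at -60 and -27, while the sterol element of Hmgcs1 begins at -137. The start sites of the windows are not always the gene starts given above. For Idi1 the gene start, 8885501, lies before that of the window, so both matches fall within the gene as placed there. For Hmgcs1 the gene start, 119690379, lies after that of the window. A match is a description of the letters, and no match says only that these letters are not in the window.

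Beyond squalene the pathway becomes specific to sterols, and 4 of 11 enzyme genes there fell while 0 rose, with a median log2 change of -0.21, where 7.66% of all genes tested were called lower. With the replicate number as a block, 6 of the 11 were called lower, in a fit that called 1032 of 10676 genes lower. Cyp51, the lanosterol demethylase gene, had 7.70, 8.06 and 7.99 FPKM in HCD libraries and 12.7, 12.5 and 12.4 FPKM in CD libraries (limma adjusted p = 0.000921). Sqle, the squalene epoxidase gene just after Fdft1, averaged 13.3 ± 0.44 FPKM under HCD and 20.1 ± 1.43 FPKM under CD (SD, n = 3 each, limma adjusted p = 0.00189). Log2 changes of these genes were -0.60 and -0.56, smaller in size than that of Idi1, and their calls held when any library was left out. Msmo1, a sterol demethylation gene, fell with a log2 change of -0.35, and lost its call without CD replicate 1 or CD replicate 2 (limma adjusted p = 0.0773 and 0.0680). The other, Hsd17b7, was close to the filter at 1.23 FPKM under HCD and 2.04 FPKM under CD, and its call (limma adjusted p = 0.0497) held without HCD replicate 2 and was lost without any other library, as it was with a pseudocount of 0.1, no filter, TMM factors or the length trend removed (limma adjusted p from 0.0504 to 0.0855).

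**Figure D3:**
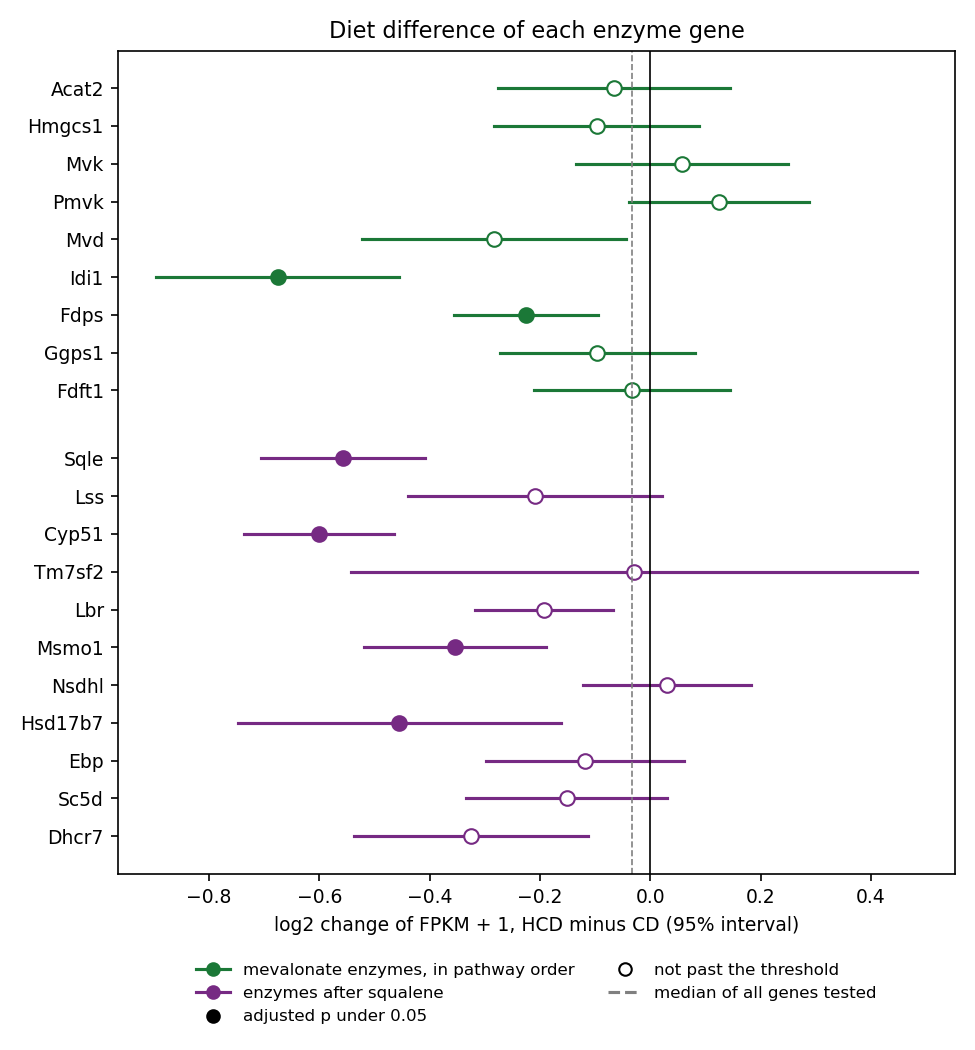
Log2 change, HCD minus CD, with its 95% interval for the 9 mevalonate genes in pathway order (green) and 11 enzyme genes after squalene (purple); filled points are past an adjusted p of 0.05 and the dashed line is the median of all genes tested, -0.03. Idi1 is the lowest point at -0.68 and Fdps is filled at -0.22, while Cyp51 lies at -0.60 and Sqle at -0.56.

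Of the genes that regulate the pathway, 0 of 7 sterol sensing genes were called. With 13.9% of all genes tested called in either direction, 0 of 7 is no result about the list. Srebf2, which encodes the SREBP form that acts mainly on sterol genes, averaged 62.2 ± 0.72 FPKM under HCD and 60.4 ± 1.41 FPKM under CD (SD, n = 3 each; log2 change 0.04, limma adjusted p = 0.553). Insig1, whose product retains SREBP in the endoplasmic reticulum, averaged 17.5 ± 0.44 FPKM under HCD and 19.3 ± 1.18 FPKM under CD (limma adjusted p = 0.174). Both were chosen after their values were seen. The SREBP proteins are controlled by cleavage, which transcript levels do not report.

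Of the routes other than sterols that draw on farnesyl diphosphate, protein prenylation, dolichol synthesis and the ubiquinone branch each had a single gene called lower and 0 higher. In protein prenylation it was Fnta, 1 of 10, which encodes the subunit shared by enzymes that attach farnesyl and geranylgeranyl anchors, at 38.0 ± 2.22 FPKM under HCD and 45.8 ± 1.38 FPKM under CD (SD, n = 3 each, limma adjusted p = 0.0174). In dolichol synthesis it was Dhdds, 1 of 7, a subunit of the prenyltransferase that builds the dolichol chain, at 21.4 ± 0.99 FPKM under HCD and 25.4 ± 0.61 FPKM under CD (limma adjusted p = 0.0242). In the branch to ubiquinone, haem A and modified tRNA it was Coq2, 1 of 12, which attaches the isoprene tail of ubiquinone, at 36.7 ± 1.08 FPKM under HCD and 43.9 ± 1.31 FPKM under CD (limma adjusted p = 0.0116). With 7.66% of all genes called lower, 1 call in lists of 7 to 12 genes is no result about the lists. The Fnta call was lost without any single CD library or without HCD replicate 1 (limma adjusted p from 0.0581 to 0.0837), that of Dhdds without any library but HCD replicate 2 (0.0661 to 0.104) or with TMM factors (0.0537), and that of Coq2 without CD replicate 1 (0.0658). The median log2 changes of these lists were -0.04, -0.11 and -0.09.

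On the supply side, Fasn and Acaca, the genes of fatty acid synthase and acetyl-CoA carboxylase, which use cytosolic acetyl-CoA, fell, with log2 changes of -0.49 and -0.45 (limma adjusted p = 0.00132 and 0.00815). Acss2, which makes acetyl-CoA from acetate, rose, at 14.3 ± 0.79 FPKM under HCD and 11.4 ± 0.41 FPKM under CD (SD, n = 3 each, limma adjusted p = 0.0180), a call lost without any CD library or without HCD replicate 1 (limma adjusted p from 0.0516 to 0.0810). Acly and Slc25a1, which supply acetyl-CoA from citrate, did not pass. A list of 8 genes held the enzymes that handle acetoacetyl-CoA outside the pathway together with the isomerase gene Idi2. Of these, 5 were tested and 0 called, which is no result about the list where 13.9% of all genes were called. The other 3 stayed under 1 FPKM everywhere, among them Idi2 and Acat3, the close relative of Acat2, at up to 0.16 FPKM.

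**Figure D4:**
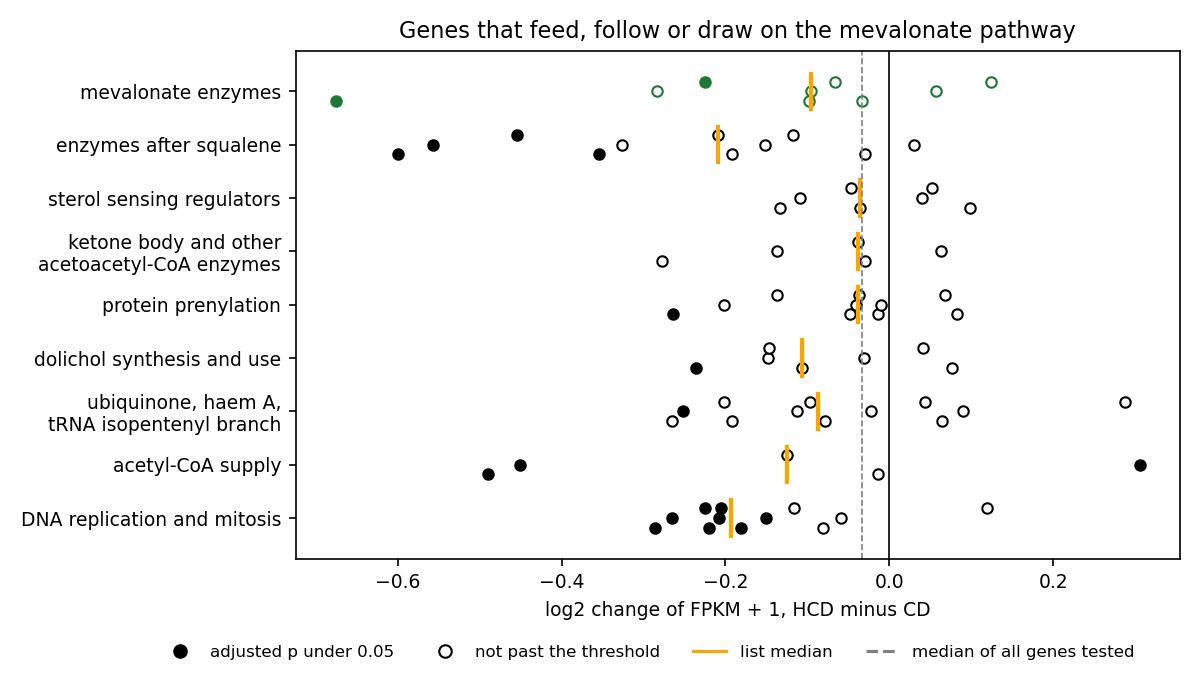
Log2 change, HCD minus CD, of each tested gene in the mevalonate group (green) and in 8 neighbouring lists (black); filled points are past an adjusted p of 0.05, orange bars are list medians and the dashed line is the median of all genes tested. The enzymes after squalene have the lowest median, -0.21, and the mevalonate enzymes one of -0.10; the immediate early genes, with a median of 1.17, are left out of the plot.

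Other groups of genes moved with diet in the same libraries, where 7.66% of all genes tested were called lower and 6.28% higher. Of 12 genes of DNA replication and mitosis 8 fell and 0 rose, with a median log2 change of -0.19 and a summed level of 1305 to 1318 FPKM in HCD libraries and 1483 to 1489 FPKM in CD libraries. The number called was 1 or 2 when 1 CD library was left out and 3 without HCD replicate 1, while the log2 change of Mcm6, a helicase subunit gene of DNA replication, lay between -0.303 and -0.245 when any library was left out. Of 10 immediate early genes, which also respond to cell handling, 9 rose, with sums of 4421 to 5575 FPKM under HCD and 2209 to 2355 FPKM under CD. All 6 genes of granulocyte and monocyte progenitors rose, with sums of 1650 to 1816 FPKM under HCD and 878 to 907 FPKM under CD. All 6 tested of 8 mature neutrophil genes rose, with sums over the list of 40.1 to 48.6 FPKM under HCD and 12.2 to 12.4 FPKM under CD. All 5 tested of 7 megakaryocyte and platelet genes rose too, with sums of 98.3 to 115 FPKM under HCD and 60.1 to 63.7 FPKM under CD. Of 8 macrophage genes 5 were tested; C1qa, C1qb and Vcam1 fell and Cd68 rose, with sums of 18.5 to 20.9 FPKM under HCD and 21.8 to 23.2 FPKM under CD. Of 7 B and plasma cell genes 3 were tested, and Jchain alone was called, as higher. Among those not tested, all under 1 FPKM, Ms4a1 was higher in every HCD library, with means of 0.257 FPKM under HCD and 0.0516 under CD. Ebf1 was lower, at 0.169 under HCD and 0.437 under CD, as was Pax5, at 0.0825 and 0.280. Of 7 T and natural killer cell genes 2 were tested, Nkg7 and Klrb1c, and both rose. Ncr1, not tested, was at most 0.0333 FPKM in HCD libraries and 0.0346 to 0.0703 FPKM in CD libraries, too low to compare. Cd3e was listed at 0 in every library. Of 8 erythroid genes 3 were tested, and the globin gene Hbb-bt alone was called, as lower. Epor, not tested, was higher in every HCD library, with means of 1.33 FPKM under HCD and 0.863 under CD. Hba-a2 and Alas2, also not tested, were at 0 in every HCD library and at most 0.283 and 0.0804 FPKM in CD libraries. Of the genes that were tested, 37.7% had groups that did not overlap, in either direction. The part of these gene groups in the falls of Idi1 and Fdps was not tested, and in bulk libraries fewer cells of a type and less RNA per cell cannot be told apart. Longer transcripts tended to be lower under HCD (Spearman's rank correlation across 10335 genes of -0.26, and -0.16 without HCD replicate 2). With the trend against length removed, Idi1 and Fdps had log2 changes of -0.68 and -0.28 and both kept their calls.

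Over the 6 libraries, the mean of the 9 members' standardised levels was -0.13, -0.31 and -0.63 in HCD replicates 1, 2 and 3 and -0.12, 0.69 and 0.49 in CD replicates 1, 2 and 3. CD replicate 1 thus lay with HCD replicate 1 on this average, in which Idi1 counts no more than the members with little change. Among 8040 genes with a mean of at least 5 FPKM, those with the highest Pearson's r to it were Ndufaf6 (0.99), Ppp1r2 (0.98), Nhp2l1 (0.98), Zyg11b (0.98) and Fam195a (0.98). None of these 5 passed the test between diets (limma adjusted p from 0.0982 to 0.387). In all, 17 of the 8040 genes (0.211%) had r over 0.95. The 5 are the highest picked from many genes over 6 libraries, so they are a description and no link to the pathway was tested.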

How the data were processed

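RNA sequencing values of 6 libraries, 3 HCD and 3 CD, were used as deposited. The tools listed, per the submitters' processing notes, are HISAT2, StringTie and fastp, with GRCm38 and mm10 as builds; for versions, annotation and filters, nothing is given in the sources used here. What the authors deposited was taken to be FPKM on the evidence of the values, because the headers hold sample names and nothing else. Of 21878 rows, 27 that carried a date in place of a symbol (0.127% of the FPKM) were left out. Depth was estimated from low genes: in 1989 of 2523 (78.8%) every value was a multiple of 1 read to within 0.02, and in 0% once false relative depths were put in.

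The test was two-sided and unpaired limma 3.58.1 in R 4.3.3, with its trend and robust options, applied to log2(FPKM + 1) of genes that reached 1 FPKM in 3 or more libraries, with Benjamini-Hochberg adjustment over all 10676 genes and a threshold of 0.05. No count model was used. Positions and lengths are from GENCODE vM21 on GRCm38. Deviations from the group means correlated by 0.103, 0.292 and 0.166 between libraries with the same replicate number, all above the bound of 0.1. Between unequal numbers the values ran from -0.25 to 0.0983. HCD replicate 3 with CD replicate 1 (0.0983) and HCD replicate 1 with CD replicate 3 (0.0941) came close to the 0.103 of replicate 1. Equal numbers may mark pairs, although no label states this and the margin for replicate 1 is small. A fit with the replicate number as a block was an alternative. Members, lists and motifs were chosen with earlier results of these data known. Named beside the 9 members are, in each neighbouring list that feeds, follows or draws on the pathway, up to 4 called genes with the smallest p and the genes most like the members' mean; other names were added after their values were seen. A gene that is not reported here was left out of its list.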

Additional observations from a re-analysis of the deposited data

How the results depend on the processing

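Idi1 kept its direction and its call in all 13 alternatives, with log2 changes from -0.78 to -0.60. The number of mevalonate genes called lower was 2 with a pseudocount of 0.1, a filter of 5 FPKM, quantile normalization, the replicate block or the length trend removed (the last chosen after seeing the data), and 1 without a filter or with TMM factors, where Fdps kept log2 changes of -0.225 and -0.194 (limma adjusted p = 0.0574 and 0.0704). Leaving out 1 library at a time gave 1 to 3 genes lower and log2 changes of -0.272 to -0.2 for Fdps, -0.35 to -0.202 for Mvd, and -0.128 to 0.039 for Acat2, positive without CD replicate 2. The block changed no call among the members, with 1873 genes called in all, and called 6 enzymes after squalene lower in place of 4. Of all genes tested, 1488 were called, 670 higher and 818 lower. Leaving out 1 library gave 435 to 2672, with 258 to 1171 higher and 177 to 1501 lower; the fewest came without CD replicate 1 and the most without HCD replicate 2. TMM factors gave 785 higher and 597 lower and left 0 dolichol genes called. Over the same omissions the numbers of genes called lower were 2 to 6 for the enzymes after squalene, 0 to 1 for the ketone body list, 0 to 1 for prenylation, 0 to 1 for dolichol, 0 to 2 for the ubiquinone branch and 1 to 8 for replication, and acetyl-CoA supply had 0 to 1 higher. Fewer samples are part of these losses. By reads estimated from the longest coding transcript, Mvd, at 115 to 185 per library, was the member that counting error limited most.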
